A study of Gallus gallus with 8 samples.

Results

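A set of 352 open chromatin regions of the chicken retinal pigment epithelium (RPE) was examined, out of 89824 regions measured by ATAC-seq. The signal of these regions was similar at both stages in developing RPE and was higher at embryonic day 4 (E4) than at embryonic day 5 (E5) after retinectomy and FGF2. They were chosen from the measured values on chromosomes 1 to 28, among 83389 regions of up to 5000 bp. With 1 added to each group mean, the log2 ratio of E5 over E4 had to lie within 0.4 of 0 in developing RPE and at -1 or below after treatment. Both treated E4 libraries also had to lie above both treated E5 libraries, and the treated E4 mean had to reach 100 normalized counts. Every criterion apart from those on the treated stage difference was met by 37986 regions.

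The groups were E5 6hPR+FGF2, E4 6hPR+FGF2, E5 RPE and E4 RPE, where 6hPR+FGF2 marks RPE collected 6 hours after surgical removal of the retina with beads carrying FGF2 placed in the eye cup. Each group had 2 libraries, and each library held RPE nuclei of 2 chicken embryos with no transgene or other agent. The submitters' labels name White Leghorn eggs, whereas the study's methods name another source of eggs for the sequencing. No ATAC-seq library of retinectomy without FGF2 was analysed here, so surgery and FGF2 cannot be told apart, and neither can fewer accessible cells and less accessibility per cell. The tissue was not checked against marker promoters and no DNA sequence is shown, as neither genome nor gene models of this build (GRCg6a) were used here. In a comparison of 2 against 2 libraries the smallest two-sided p of an exact permutation test is 0.333, so p-values come from limma fitted across all regions.

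The RPE is the pigmented sheet behind the neural retina, and its identity is maintained by transcription factors that include MITF and OTX2. In the chick embryo, FGF2 can turn RPE into neural retina after the retina is removed, a capacity that is lost as the RPE matures between these stages. ATAC-seq marks DNA that a transposase can reach, such as promoters and enhancers, and a change in its signal shows a change in accessibility and not in gene expression. A difference between stages seen only in treated RPE can arise in either of 2 ways. Treatment can raise accessibility more at E4, or lower it more at E5.

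Both ways were found among the 352 regions, and the second was the more frequent. A region was placed by the sum of its log2 treatment changes at the 2 stages, each taken as the treated over the developing group mean. The sum was positive in 95 regions (27%), which opened more at E4 than they closed at E5, and it was 0 or negative in 257 regions (73%), which closed more at E5. Among the 37986 regions that met the other criteria, the sum was positive in 58.1%. Which regions were chosen, and with them the split, depended on 1 library. When E4 6hPR+FGF2 replicate 1 was left out and the rule was applied to the other 7 libraries, 391 regions were chosen, of which 219 opened more at E4 and 172 (44%) closed more at E5. When E4 6hPR+FGF2 replicate 2 was left out instead, 637 regions were chosen, of which 127 opened more at E4 and 510 closed more at E5. Only 185 of the 352 regions were also among the 391. Within the 352 as chosen from all 8 libraries, the average treatment effect by limma was above 0 in 95 regions. It was above 0 in 90 of them without E4 6hPR+FGF2 replicate 1 and in 94 without replicate 2. That library had entered the choice of the 352.

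**Figure D1:**
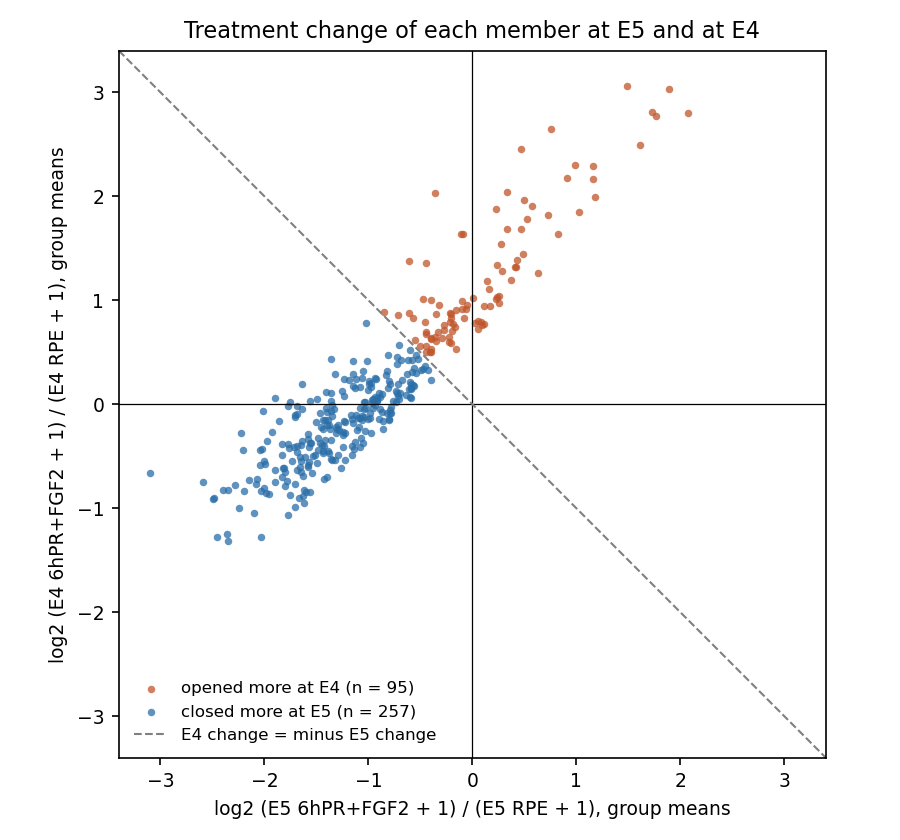
Log2 ratio of treated over developing group means, each with 1 added, at E5 on the horizontal axis and at E4 on the vertical axis, for each of the 352 regions. Above the dashed line lie the 95 regions that opened more at E4, and below it the 257 that closed more at E5, 187 of them with an E4 change within 0.5 log2 units of 0 and an E5 change below that band.

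With a band of 0.5 log2 units around no change, the 2 routes divided further. At E5 only, 187 regions (53.1%) were lower in treated RPE by at least the band, and 62 (17.6%) were lower at both stages but more so at E5. A further 69 regions (19.6%) were higher in treated RPE at E4 only, and 19 (5.4%) were higher at both stages but more so at E4. In 10 regions (2.84%) the treated signal was lower at E5 and higher at E4, and in 5 regions (1.42%) neither change passed the band. Within the set, the most common pattern was therefore loss of signal at E5 beside little change at E4, and the rarest full pattern was movement in opposite directions. Among the 37986 regions that met the other criteria, 6.66% were lower at E5 only and 6.93% lower at both stages. There, 3.89% were higher at E4 only, 19.4% higher at both stages, and 0.029% lower at E5 and higher at E4. The required treated stage difference favours some of these classes over others, so the ranking partly restates the rule.

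In the libraries, the 257 regions of the second kind had a median over regions of 80.8 and 71.4 normalized counts in the E5 6hPR+FGF2 libraries and of 215 and 153 in the E4 6hPR+FGF2 libraries. In developing RPE the medians were 216 and 188 at E5, and 236 and 205 at E4. The E5 6hPR+FGF2 libraries were thus the low ones. The treated mean was 39.97% of the developing mean at E5 and 89.8% at E4, as medians over regions. In 255 of the 257 both E5 6hPR+FGF2 libraries lay below both E5 RPE libraries, against 37% of all regions, a count largely set by the way the regions were sorted.

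The 95 regions that opened more at E4 showed the other profile. Their median over regions was 90.0 and 71.4 normalized counts in the E5 6hPR+FGF2 libraries and 188 and 192 in the E4 6hPR+FGF2 libraries, against 79.2 and 77.5 in E5 RPE and 89.1 and 101 in E4 RPE. Here the E4 6hPR+FGF2 libraries were the high ones, and the treated mean was 96.5% of the developing mean at E5 and 196% at E4. In 93 of the 95 both E4 6hPR+FGF2 libraries lay above both E4 RPE libraries, against 30.5% of all regions, and here too the sorting largely set the count. Their developing levels were also lower, but the minimum of 100 in treated E4 RPE admits regions weak in developing RPE only through such a gain.

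**Figure D2:**
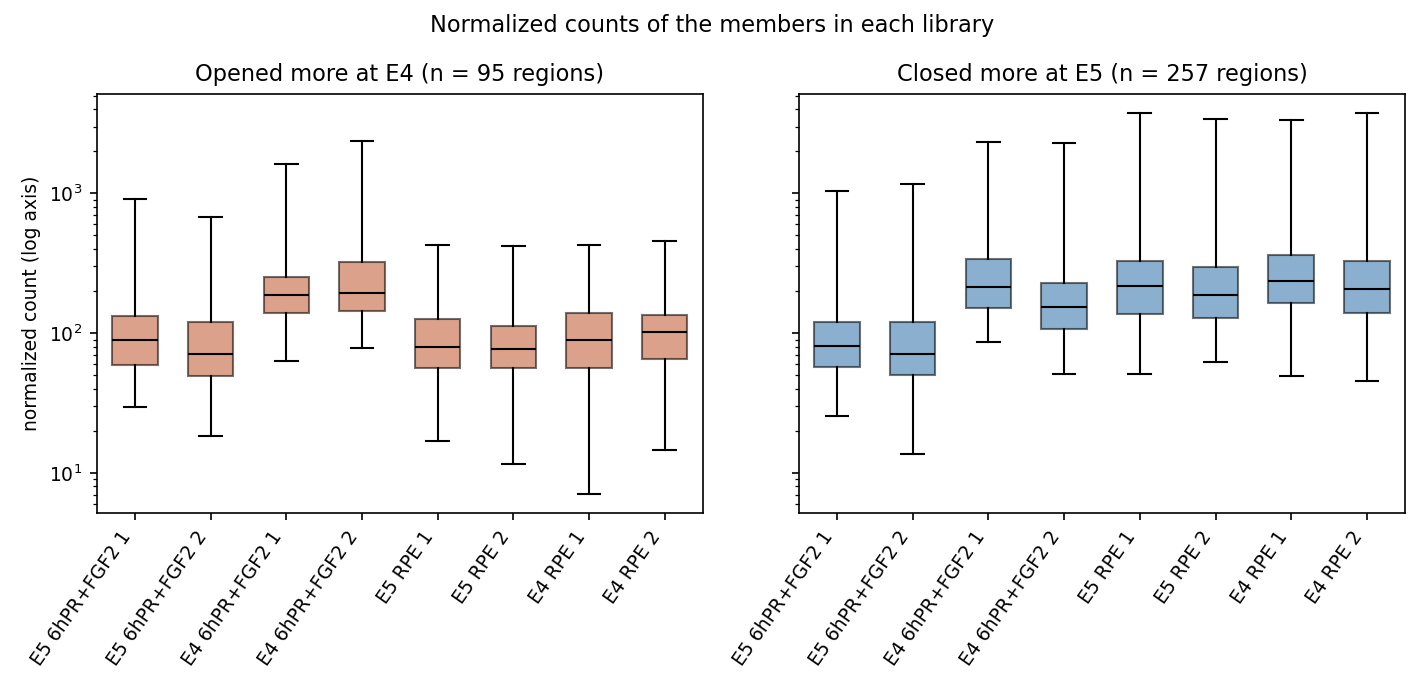
Normalized counts on a log axis in each of the 8 libraries, for the 95 regions that opened more at E4 (left) and the 257 that closed more at E5 (right). Boxes show the quartiles and median over regions and whiskers the lowest and highest region. On the left the E4 6hPR+FGF2 libraries stand above the rest, with medians of 188 and 192, and on the right the E5 6hPR+FGF2 libraries stand below the rest, with medians of 80.8 and 71.4.

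The 2 libraries of E4 6hPR+FGF2 differed over these regions. They were over 2-fold apart in 55 of the 352 (15.6%), against 1.26% of the 37986 regions that met the other criteria. Those of E5 6hPR+FGF2 were over 2-fold apart in 26 (7.39%), against 1.64%. In the 257 regions that closed more at E5, replicate 1 was the higher in 206, and it stood at 103% of the E4 developing mean, against 69.5% for replicate 2, as medians. In the 95 regions that opened more at E4, replicate 1 was the higher in only 33, at 199% of the developing mean, against 211% for replicate 2. Outside the set, 1324 regions met the other criteria and had a log2 ratio of treated over developing RPE of -1 or below at E5. E4 6hPR+FGF2 replicate 1 was the higher in 50.7% of them. There, replicates 1 and 2 stood at 54.9% and 51.3% of the E4 developing mean, as medians. The part of this replicate difference in the choice of the 352 regions was not tested.

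The average of the 2 treatment effects was given no direction by the rule, apart from the minimum level in treated E4 RPE. It is not free of the choice, because the treated libraries used by the rule enter it and were less deep at E5. How far the choice moved this average was not tested, and it is given as a description. Using limma with Benjamini-Hochberg adjustment over all 89824 regions at 0.05, it was lower in treated RPE in 167 of the 352 regions (47.4%), where 24.2% of all regions were called. It was higher in 42 (11.9%), where 22.5% of all regions were called, and 143 were not called. Since the 2 kinds of region were defined by the sign of this effect, the calls show only how many of each kind passed. The effect did not pass in 90 of the 257 regions that closed more at E5 and in 53 of the 95 that opened more at E4. With each of the 8 libraries left out in turn, 114 of the 167 and 29 of the 42 calls held in all 8 fits.

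By stage, the treatment effects are likewise given as a description, because the treated libraries entered the choice of regions. At E5, limma called 209 of the 352 regions (59.4%) lower after treatment, where 19.3% of all regions were called, and 9 higher, where 18.2% were called. At E4 it called 16 lower, where 9.53% of all regions were called, and 52 higher (14.8%), where 10.4% were called. The E4 calls moved with single libraries, over all regions as well as in the set. With all libraries, the median E4 log2 change of the 352 was -0.01. It was 0.22 without E4 6hPR+FGF2 replicate 2 and -0.19 without replicate 1. Over all regions these medians were -0.03, -0.01 and -0.03. Of the 209 regions lower at E5, 193 were not called at E4 and 16 were also lower at E4. Of the 52 regions higher at E4, 43 were not called at E5 and 9 were also higher at E5. In 91 regions neither stage was called.

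Counted by libraries that did not overlap, 281 of the 352 regions (79.8%) had both treated libraries below both developing libraries at E5. This was a pattern of 37% of all regions and of 28.6% of the 37986 regions that met the other criteria. The opposite order at E5 was found in 31, or 8.81%, against 33.9% of all regions and 44.4% of the 37986. At E4, 116 regions (33%) had both treated libraries above both developing libraries, against 30.5% of all regions and 40.9% of the 37986. Both lay below in 75 (21.3%), against 32% and 26.9%. The E4 libraries overlapped in 161 regions (45.7%), against 32.1% of the 37986. Separation downward at E5 and upward at E4 occurred together in 47 regions (13.4%), against 1.18% of all regions, a pattern that the rule favours.

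What the rule fixed is described here without support drawn from it. The treated log2 ratio of E5 over E4 ran to -2.53 at the lowest, with a median of -1.19, and it was -1.5 or below in 62 regions and -2 or below in 7. Many members lay near the limit, as 100 had a ratio between -1.1 and -1. Just inside it were chr3:26233860-26234620 at -1.0014 (163 and 129 normalized counts in E5 6hPR+FGF2, 358 and 230 in E4 6hPR+FGF2) and chr2:93709380-93710290 at -1.0014 (127 and 98.8 in E5 6hPR+FGF2, 279 and 174 in E4 6hPR+FGF2). Just outside were chr19:1677710-1678060 at -0.9998 (79.0 and 74.5 in E5 6hPR+FGF2, 146 and 163 in E4 6hPR+FGF2) and chr1:33000050-33000560 at -0.9996 (79.0 and 60.8 in E5 6hPR+FGF2, 181 and 99.97 in E4 6hPR+FGF2). The regions inside and outside the limit were nearly equal in this ratio, though not in their levels. All coordinates are those deposited, on the GRCg6a build.

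In developing RPE the allowed range was used on one side. The log2 ratio of E5 over E4 was below 0 in 284 of the 352 regions (80.7%), with a median of -0.20, whereas it was below 0 in 46.6% of the 37986 regions that met the other criteria. Both E5 RPE libraries lay below both E4 RPE libraries in 111 regions (31.5%), against 15.5% of the 37986 regions and 24.1% of all regions. No member was called for the stage difference in developing RPE by limma, edgeR or DESeq2, where limma called 2.8% of all regions higher and 1.35% lower at E5. At an unadjusted p under 0.05 limma counted 0 members, and the limit of 0.4 left little room for a call. The stage difference after treatment was fixed by the choice of regions, and its calls restate the rule. Here limma called 177 of the 352 lower at E5 (50.3%), where 2.06% of all regions were called lower and 2.54% higher. Without E5 6hPR+FGF2 replicate 2, or without E4 6hPR+FGF2 replicate 1, almost all such calls were lost, over all regions as well as in the set. The median E5 minus E4 log2 difference of the 352 was then -1.14 and -1.11, against -1.18 with all 8 libraries. DESeq2 called 293 of the 352 lower at E5 (83.2%), where it called 4.19% of the regions it tested lower and 5.15% higher.

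The difference between the 2 treatment effects, or interaction of stage and treatment, follows closely from the ratios the rule used and is given as a description. Of the 352 regions limma called none, with 212 at an unadjusted p under 0.05, against 8269 of all 89824 regions, and it called 0.00223% of all regions in the other direction and 0% in this one. The edgeR test on recovered reads called none, and DESeq2 called 18 of the 209 members that it tested (8.61%), where 0.338% of the regions it tested were called.

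By the ratio of group means, the site at chr5:25112990-25113230 (240 bp) had the largest E4 gain. It had 79.0 and 34.9 normalized counts in E5 6hPR+FGF2 and 92.5 and 178 in E4 6hPR+FGF2, against 26.2 and 13.3 in E5 RPE and 12.7 and 17.9 in E4 RPE. The E4 treated libraries did not overlap with any other group. With limma the log2 change at E5 was 1.44 ± 0.53 (SE; adjusted p = 0.0564), and at E4 it was 3.003 ± 0.53 (adjusted p = 0.00439), an 8.81-fold ratio of means.

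A site at chr26:2166280-2166660 (380 bp) opened at both stages. It had 162 and 137 normalized counts in E5 6hPR+FGF2 and 232 and 399 in E4 6hPR+FGF2, against 43.1 and 35.8 in E5 RPE and 29.7 and 45.7 in E4 RPE. All treated libraries lay above all developing libraries, and those of E4 were the highest. Both changes passed the limma test, at 1.89 ± 0.34 log2 units at E5 (SE; adjusted p = 0.00226) and 3.01 ± 0.34 at E4 (adjusted p = 0.000557). The average effect of this site, 2.45 ± 0.24 (adjusted p = 4.6e-05), was the highest of the set.

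The sites at chr4:16358230-16358580, chr3:5419470-5419840 and chr8:25921070-25921330 behaved likewise. The chromosome 4 site had 101 and 155 normalized counts in E5 6hPR+FGF2 and 166 and 358 in E4 6hPR+FGF2, against 40.3 and 19.2 in E5 RPE and 36.8 and 36.7 in E4 RPE. The chromosome 3 site had 55.1 and 65.3 in E5 6hPR+FGF2 and 90.4 and 182 in E4 6hPR+FGF2, against 19.8 and 14.2 in E5 RPE and 7.07 and 31.0 in E4 RPE. In each of the 3, limma called the treatment change at both stages, with average effects of 2.41 ± 0.32, 2.39 ± 0.44 and 2.27 ± 0.37 log2 units (SE; adjusted p = 0.000232, 0.00149 and 0.000783). The E5 calls of the chromosome 3 and chromosome 8 sites, at adjusted p = 0.0438 and 0.025, were lost under 5 and 3 of the alternative settings.

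The site at chr1:9527950-9528460 was among the 6 largest E4 gains and had a gene name. Names were looked up only in a shortened copy of the study's annotation, which held 9 of the 352 regions, all on chromosome 1. The nearest transcription start was that of SEMA3E, which encodes a secreted semaphorin that guides axons and vessels. The site had 56.9 and 38.0 normalized counts in E5 6hPR+FGF2 and 157 and 272 in E4 6hPR+FGF2, against 21.9 and 33.3 in E5 RPE and 28.3 and 38.3 in E4 RPE. At E5 the treated libraries lay above the developing ones, but the limma change of 0.76 ± 0.41 log2 units did not pass (SE; adjusted p = 0.167). At E4 the treated libraries stood far above the other 6, with a change of 2.61 ± 0.41 (adjusted p = 0.00236).

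A pair of neighbouring regions on chromosome 5 was the closest in the set, with midpoints 2555 bp apart. The larger, chr5:54618520-54620970 (2450 bp), had 915 and 676 normalized counts in E5 6hPR+FGF2 and 1627 and 2364 in E4 6hPR+FGF2, against 424 and 423 in E5 RPE and 424 and 457 in E4 RPE. Developing libraries differed little, and treated libraries were higher at both stages. With limma the change was 0.89 ± 0.21 log2 units at E5 (SE; adjusted p = 0.00746) and 2.15 ± 0.21 at E4 (adjusted p = 0.000241). This was one of the 3 members with the highest E4 6hPR+FGF2 mean and the only one of the 3 to gain signal.

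Its neighbour, chr5:54621830-54622770, passed the test at E4 but not at E5. It had 217 and 204 normalized counts in E5 6hPR+FGF2 and 354 and 594 in E4 6hPR+FGF2, against 189 and 157 in E5 RPE and 108 and 216 in E4 RPE. The limma change was 0.28 ± 0.34 log2 units at E5 (SE; adjusted p = 0.542) and 1.58 ± 0.34 at E4 (adjusted p = 0.0101). The pair was not matched to a gene here.

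The widest treated stage difference was found at chr2:32080480-32081240, a site singled out after its values were seen. It had 162 and 57.7 normalized counts in E5 6hPR+FGF2 and 695 and 583 in E4 6hPR+FGF2, against 156 and 127 in E5 RPE and 146 and 166 in E4 RPE. Only the E4 treated libraries stood apart, and the lower of them was 3.61 times the higher of the E5 treated libraries. The limma change was -0.54 ± 0.39 log2 units at E5 (SE; adjusted p = 0.306) and 2.03 ± 0.39 at E4 (adjusted p = 0.00636).

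**Figure D3:**
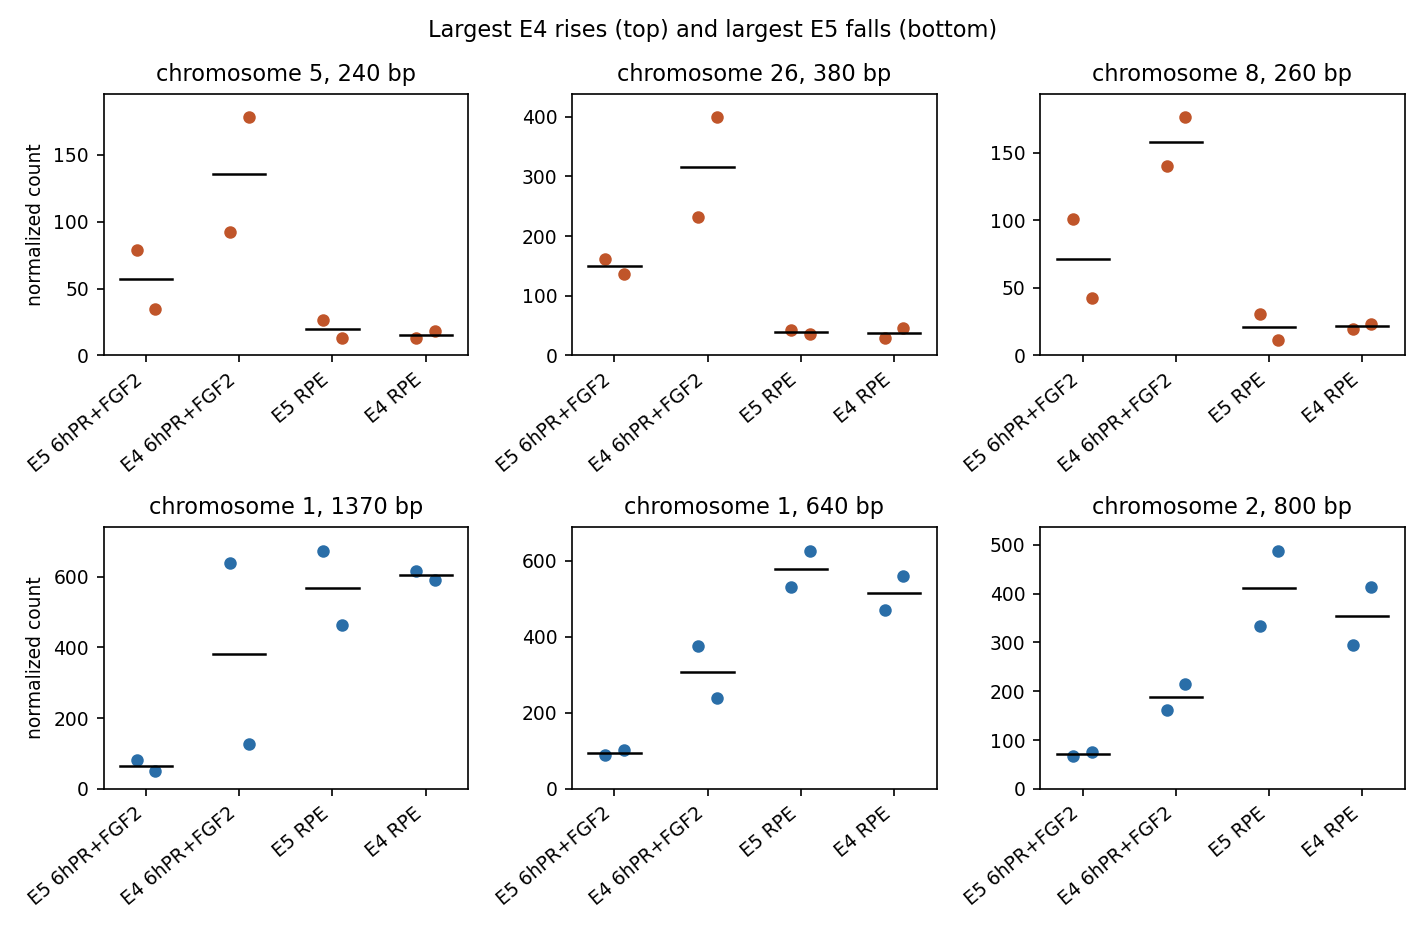
Normalized counts of each library (points) and group means (bars) for the 3 regions with the largest E4 gain (top) and the 3 with the largest E5 loss (bottom), with E5 6hPR+FGF2, E4 6hPR+FGF2, E5 RPE and E4 RPE from left to right. In the top row E4 6hPR+FGF2 is highest, and in the bottom row E5 6hPR+FGF2 is lowest, and the 1370 bp region on chromosome 1 has E4 6hPR+FGF2 libraries as far apart as 638 and 127.

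Treated E5 RPE had as little as 11.5% of the developing mean. That value belonged to chr1:178157440-178158810 (1370 bp), which had 80.8 and 50.1 normalized counts in E5 6hPR+FGF2 and 638 and 127 in E4 6hPR+FGF2, against 673 and 465 in E5 RPE and 617 and 591 in E4 RPE. One E4 treated library was at the developing level and the other was near the E5 treated level. The limma change was -3.12 ± 0.57 log2 units at E5 (SE; adjusted p = 0.00245) and -1.08 ± 0.57 at E4 (adjusted p = 0.211).

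More even replicates were seen at chr3:23588520-23589360 (840 bp). It had 129 and 129 normalized counts in E5 6hPR+FGF2 and 299 and 319 in E4 6hPR+FGF2, against 678 and 744 in E5 RPE and 595 and 899 in E4 RPE. The 4 groups kept apart as 3 levels, with E5 treated RPE lowest, E4 treated RPE next and both developing groups overlapping above them. This region lost signal at both stages, by -2.45 ± 0.21 log2 units at E5 (SE; adjusted p = 7.67e-05) and -1.24 ± 0.21 at E4 (adjusted p = 0.00336). The same held at chr6:7658870-7659540, with -2.35 ± 0.27 at E5 (adjusted p = 0.000246) and -1.34 ± 0.27 at E4 (adjusted p = 0.00805).

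The other large E5 losses were at chr1:25568640-25569280, chr2:128131160-128131960, chr4:22461030-22461730 and chr3:73217170-73217820, where treated E5 RPE had 16.4%, 17.5%, 17.7% and 18.7% of its developing mean. All 4 passed the limma test at E5, with log2 changes from -2.40 to -2.59 (adjusted p from 0.000101 to 0.000371). At E4 the changes were -0.77, -0.91, -1.005 and -0.82. The first 3 passed at adjusted p = 0.0451, 0.038 and 0.0462, and lost that call under 9, 5 and 10 alternative settings, and the last did not pass (adjusted p = 0.0835). At these 4 sites the E5 change passed with the wider margin, an order favoured by choosing them for large E5 losses.

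Strong regions were rare in the set, and the remaining 2 of the 3 members with the highest E4 6hPR+FGF2 mean lost signal. The region at chr16:2495400-2499820 (4420 bp) had 1047 and 1170 normalized counts in E5 6hPR+FGF2 and 2345 and 2283 in E4 6hPR+FGF2, against 3769 and 3397 in E5 RPE and 3367 and 3787 in E4 RPE. Its replicates were close, and limma called losses of -1.69 ± 0.13 log2 units at E5 (SE; adjusted p = 4.84e-05) and -0.63 ± 0.13 at E4 (adjusted p = 0.00793). The region at chr1:84612970-84615600 (2630 bp) had 845 and 793 in E5 6hPR+FGF2 and 1743 and 2019 in E4 6hPR+FGF2, against 2823 and 2776 in E5 RPE and 2056 and 2861 in E4 RPE. It lost signal at E5 by -1.77 ± 0.16 log2 units (SE; adjusted p = 0.000104), and the E4 change of -0.37 ± 0.16 did not pass (adjusted p = 0.139).

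Of the 9 members in the shortened copy of the study's annotation, 5 lay in introns and 4 between genes, and 5 had a gene name. Those with a name and a pair that shared a gene are given for their annotation, and not for their values unless also named above. The remaining members of the 9 are not given. The intronic site in USP6NL, at chr1:6586060-6586670, had 91.9 and 74.5 normalized counts in E5 6hPR+FGF2 and 341 and 188 in E4 6hPR+FGF2, against 417 and 264 in E5 RPE and 397 and 315 in E4 RPE. USP6NL encodes a protein that switches off Rab GTPases in endocytosis. The site nearest to PIM3, a serine/threonine kinase gene, at chr1:19430150-19430720, had 29.4 and 48.6 in E5 6hPR+FGF2 and 157 and 86.2 in E4 6hPR+FGF2, against 237 and 152 in E5 RPE and 236 and 182 in E4 RPE. Both sites were lowest in the treated E5 libraries, and their average effects of -1.24 ± 0.22 and -1.56 ± 0.27 log2 units passed the limma test (SE; adjusted p = 0.00147 and 0.001).

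A site whose nearest start was that of ANKRD26, at chr1:24424590-24425170, was also lower on average after treatment, by -1.24 ± 0.18 log2 units (SE; adjusted p = 0.000445). In contrast, the intronic site in RELN, which encodes the secreted protein reelin that directs the placement of neurons, gave no call. At chr1:13377130-13377610 it had 53.3 and 68.4 normalized counts in E5 6hPR+FGF2 and 194 and 86.2 in E4 6hPR+FGF2, against 87.7 and 80.0 in E5 RPE and 83.4 and 133 in E4 RPE. One treated E4 library was high and the other was at the developing level, and the average effect was -0.09 ± 0.28 (adjusted p = 0.822). The pair of intronic sites at chr1:25568640-25569280 and chr1:25623300-25623840 shared a gene without a name in the annotation, and the average effect passed in the first but not in the second (-0.57 ± 0.26, adjusted p = 0.0919), a difference that was not tested.

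In 10 regions treatment gave opposite changes of at least 0.5 log2 units, and in all 10 the treated and developing libraries were separate at both stages. The site at chr1:180519250-180519580 had 36.7 and 39.5 normalized counts in E5 6hPR+FGF2 and 171 and 196 in E4 6hPR+FGF2, against 62.9 and 54.2 in E5 RPE and 46.7 and 92.95 in E4 RPE. Its E5 change of -0.61 log2 units, as a ratio of means, did not pass the limma test (adjusted p = 0.208), and its E4 gain of 1.38 did (adjusted p = 0.018). In the other 9 neither change passed, with limma adjusted p from 0.059 to 0.224 at E5 and from 0.081 to 0.265 at E4. None of the 10 was called for the average effect, in which opposite changes cancel.

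The members were weaker and shorter than the regions they were drawn from. They made up 1.75% of the regions with 100 to 200 normalized counts in treated E4 RPE, 1.25% of those with 200 to 400, 0.457% of those with 400 to 1000 and 0.0632% of those with 1000 or more. Their median width was 590 bp, against 850 bp for the 37986 regions that met the other criteria, with 400 bp in those that opened more at E4 and 640 bp in those that closed more at E5. Among the 132 members under 500 bp, 64 opened more at E4, whereas 24 of the 176 members of 500 to 1000 bp did so. Depth was shallow at this level. The 8 libraries held between 25233633 and 72884966 reads in regions, and the median member had 45.5 and 47 reads in the E5 6hPR+FGF2 libraries, the least deep in total reads, and 302 and 224 reads in the E4 6hPR+FGF2 libraries. The part of depth in the choice of members was not tested.

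The large chromosomes held most members. Chromosomes 1 to 5 carried 235 (66.8%), against 49.2% of the 37986 regions that met the other criteria, and chromosomes 11 to 28 carried 52 (14.8%), against 32.9%. Chromosome 2 had the most, with 64. Chromosome 8 held 24 members, or 6.82% of the set against 3.68% of the 37986 regions, 10 of which opened more at E4. No member lay on chromosome 18 or 23.

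Most members had no other member within 100 kb. Another member lay within 10 kb of 8 of the 352, within 50 kb of 23 and within 100 kb of 51, and these 51 formed 21 runs. In 14 of the 21 runs all members were of one kind. Neither the distances nor the runs were compared with those of other regions or of randomly assigned kinds. The longest run held 4 members between 83544440 and 83762340 on chromosome 4, a stretch of 218 kb with 38 measured regions in all, and all 4 closed more at E5. On chromosome 2, between 101986970 and 102004830, all 3 measured regions of a 17.9 kb stretch were members, of which 2 opened more at E4.

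Neighbouring regions that were not members gave values that the rule did not use directly. Within 5 kb of a member, 264 other regions with at least 100 normalized counts in a treated group had a median log2 ratio of E5 over E4 of -0.23 after treatment, and 67.4% of them were below 0. The median was -0.08 for 1060 regions at 5 to 25 kb, 0.02 for 3374 at 25 to 100 kb and 0.10 for 53491 farther away. In developing RPE the medians for the same 4 distances were -0.16, -0.03, 0.00 and 0.03, so that the nearest regions were also lower at E5 without treatment. The shift was therefore seen in both conditions.

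The neighbours also differed in their treatment change. Within 5 kb of members that opened more at E4, 83 regions had median log2 changes of 0.31 at E5 and 0.36 at E4. Within 5 kb of members that closed more at E5, 181 regions had medians of -0.14 at E5 and -0.04 at E4. The members that opened more at E4 had median changes of -0.05 at E5 and 0.96 at E4, so that their neighbours had the higher median at E5 and the lower one at E4. Neighbouring regions share libraries and local sequence with the members and are not independent of them.

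**Figure D4:**
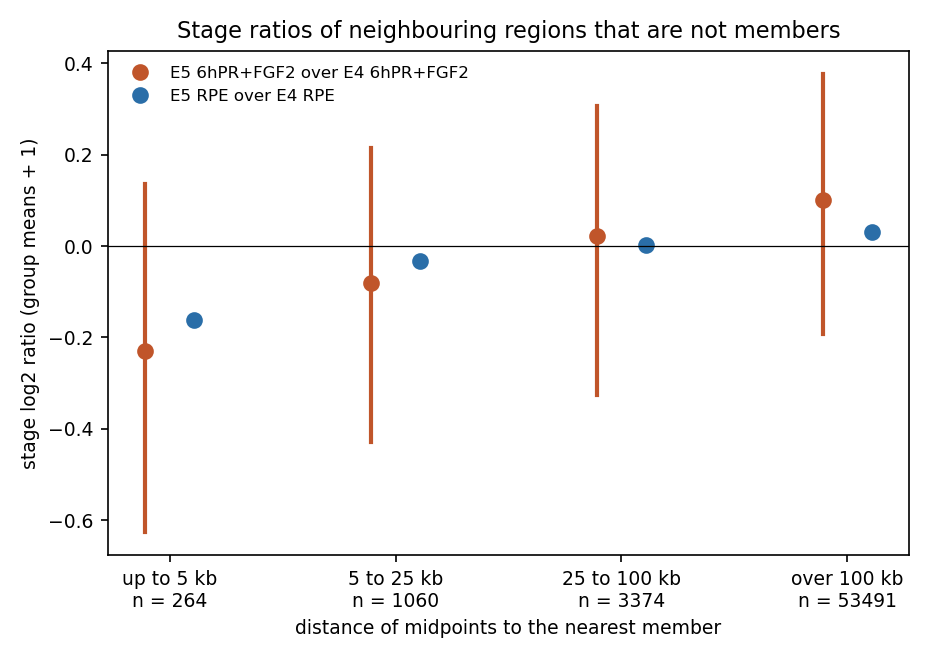
Median log2 ratio of E5 over E4 of regions that are not members, by distance to the nearest member, after 6hPR+FGF2 (orange, with lines spanning the quartiles) and in developing RPE (blue, median only). The medians within 5 kb are -0.23 after treatment and -0.16 in developing RPE, and both approach 0 at 25 to 100 kb.

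The mirrored rule, which asks for a higher signal at E5 after treatment and for the minimum level in treated E5 RPE, chose 688 regions. In 513 of them (74.6%) the sum of the treatment changes was positive, against 27% of the 352 and 58.1% of the 37986 regions. With the same band, 266 of the 688 (38.7%) opened at E5 only, 216 (31.4%) opened at both stages and 123 (17.9%) closed at E4 only. Among the 37986 regions, which met the minimum in treated E4 RPE instead, these shares were 9.94%, 19.4% and 2.8%. With all 8 libraries, sites with higher signal at E5 after treatment thus mostly had more signal after treatment. Those with higher signal at E4 mostly had less of it in treated E5 RPE, but only 44% closed more at E5 without E4 6hPR+FGF2 replicate 1. The mirrored rule was not run with libraries left out. Its minimum in treated E5 RPE admits regions weak in developing RPE only through a gain. Developing means were under 100 at both stages in 51.3% of the 688 and 18.2% of the 352. The 2 sets were chosen by rules that fix their stage direction, and no test of the difference between them was made.

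**Figure D5:**
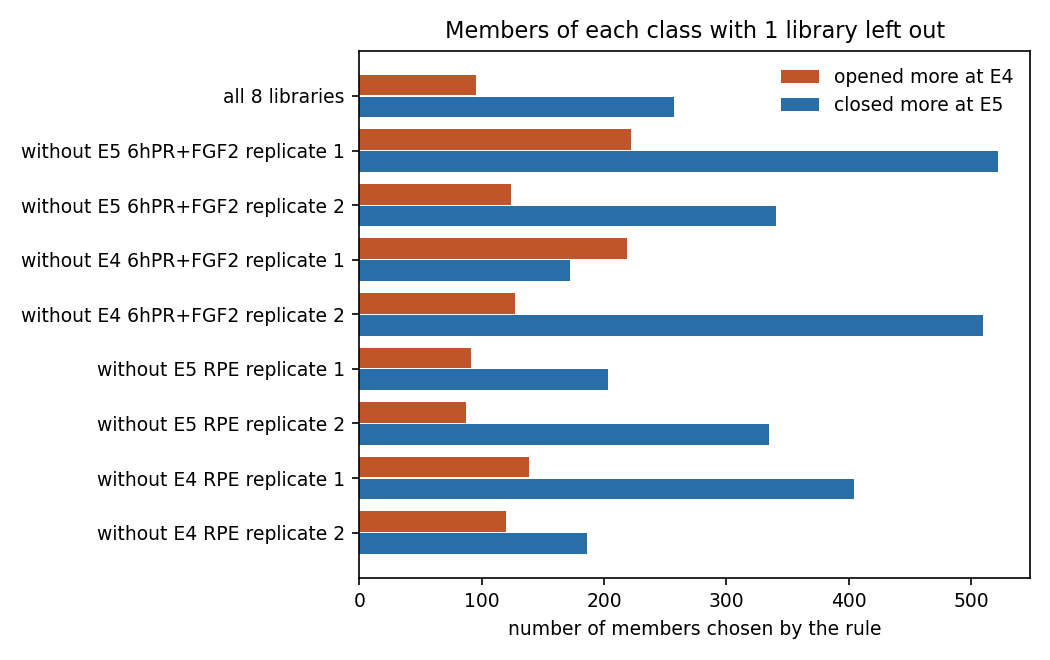
Number of regions chosen by the rule that opened more at E4 (orange) and closed more at E5 (blue), with all 8 libraries and with each library left out. The second kind outnumbers the first with all 8 libraries, at 257 and 95, and in 7 of the 8 other settings, and only without E4 6hPR+FGF2 replicate 1 is the order the other way round, at 172 and 219.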

How the data were processed

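ATAC-seq of 4 groups of 2 libraries was analysed, each from the RPE of 2 embryos. As the study's methods state, the authors trimmed reads with Cutadapt and Trim Galore, aligned them to GRCg6a with Bowtie2 reporting several alignments per read, removed duplicates with Picard, called open regions per library with HMMRATAC, merged them with BEDTools and counted reads with featureCounts. A read from repeated sequence may thus stand at the wrong copy. Not given in the sources used here are versions, any shift of reads for the transposase, and whether starts count from 0 or 1. The deposited values are a signal, namely DESeq2-normalized read counts per region, made by the authors for 89824 regions in 8 libraries without pooling replicates. Dividing each value by the smallest nonzero one of its library gave whole reads (100% within 1e-06). They came to between 25233633 and 72884966 per library, with size factors from 0.544 to 1.45.

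The members and lists were chosen with earlier results of these data known. Tests used log2(normalized count + 1) in limma 3.58.1 (R 4.3.3), where 1 model held the 4 group means over the 8 libraries, moderated by empirical Bayes with a trend. Two-sided p-values were adjusted over all regions by the Benjamini-Hochberg method, at a threshold of 0.05. Such fold changes understate those of low regions. Standard errors are those of limma, and treatment changes used for classes are log2 ratios of group means + 1. On the recovered reads, edgeR 4.0.16 (quasi-likelihood test, TMM) called 44 members higher and 159 lower for the average effect. Over all 89824 regions it called 21009 higher and 20786 lower. DESeq2 1.42.0 called 41 members higher and 167 lower, and 19757 and 21201 of the 89822 regions it tested. Regions named by fixed choices were the 6 with the largest E4 rise and the 6 with the largest E5 fall without overlap. To these were added the 3 with the highest E4 6hPR+FGF2 mean, and the 3 highest and 3 lowest called average effects. The 2 on each side of the limit and the closest pair completed them. Some annotated members, those with opposite changes and those said to be singled out were named besides. Gene names come from a shortened copy of the study's annotation, which held 1926 regions, all on chromosome 1, of which 9 are members. P-values rest on the spread between the 2 libraries of each group, pooled over the 4 groups and moderated toward a trend across all regions. The limma tests of treatment were tried on simulated counts drawn independently for each library, without the replicate difference seen in E4 6hPR+FGF2. No support is drawn from that trial here. Motifs, promoters and marker genes of the design were not analysed here, as no GRCg6a genome or annotation was used.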

Additional observations from a re-analysis of the deposited data

Results flagged for a closer look

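In 10 regions the treatment changes were opposite at the 2 stages and at least 0.5 log2 units in size at each. In them every E5 6hPR+FGF2 library lay below, and every E4 6hPR+FGF2 library above, the developing libraries of its stage. The E5 minus E4 difference of their log2 treatment changes is given in brackets for chr1:35459960-35460390 (-1.28), chr1:54033830-54034180 (-1.58), chr1:180519250-180519580 (-1.99), chr19:9825950-9826170 (-1.07), chr2:89234610-89234940 (-1.13), chr2:138616350-138616860 (-1.17), chr28:1501520-1501830 (-1.4), chr3:32455600-32455990 (-1.8), chr5:34322400-34322840 (-1.73) and chr9:17116440-17116910 (-1.48). The rule that chose the regions favours this order, limma called none of the 10 for the interaction of stage and treatment, and the cause was not tested.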

How the results depend on the processing

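The count of 352 regions, with 95 that opened more at E4 and 257 that closed more at E5, followed the limits of the rule. It was 224 (61 and 163) with a limit of 0.3 on the developing stage ratio, 62 (16 and 46) with a limit of -1.5 on the treated stage ratio, 634 (511 closed more at E5) with a minimum of 50 and 157 (44 and 113) with a minimum of 200. With 1 library left out it ran from 294 to 744, with 87 to 222 regions that opened more at E4 and 172 to 522 that closed more at E5. Scaling to equal totals moved the median treated stage ratio of all regions to -0.07, against 0.04 as deposited, and gave 449 regions, 254 of them shared with the 352. Under pseudocounts of 0.5 and 10, TMM factors, quantile normalization, a limit of 0.5 and a width of at most 2000 bp the count stayed within 1.5 times, and the majority that closed more at E5 held in all of these settings.

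Calls for the average treatment effect, 42 members higher and 167 lower, stayed within 1.5 times in every setting run, at 31 to 39 and 121 to 176 with 1 library left out. Over all regions these ranges were 15819 to 19113 higher and 16087 to 21512 lower. At E5, members called ran from 5 to 11 higher and 115 to 218 lower, and all regions from 9196 to 16716 higher and 9026 to 17027 lower. At E4, members called ran from 18 to 55 higher and 2 to 31 lower, and all regions from 2704 to 9717 higher and 3517 to 10514 lower. The 16 members lower at E4 became 9 under equal totals, 9 with only the 4 libraries of the comparison and 28 with the replicate number as a block. That block gave 43 members higher and 187 lower on average, and over all regions 21167 higher and 23342 lower, against 20204 and 21709 without it. Apart from the fits with 1 library left out, no other count of treatment calls moved past 1.5 times. For the stage difference after treatment it gave 282 members lower at E5, against 177 without it, and over all regions 4014 higher and 4079 lower, against 2279 and 1854. In developing RPE it gave 4294 higher and 3019 lower at E5 over all regions, against 2517 and 1216. In the sample labels, replicates of different groups share only a number, so nothing was paired in the main fit. The correlation of their deviations between groups ran from -0.21 to 0.33, and whether same-numbered replicates share a batch was not tested. Among 1007 alternative values of the members named by fixed choices, 959 kept their side of the threshold, 41 lost it and 7 gained it. Regions named for other reasons were not among them. Besides the lost calls given with their sites, E4 calls were lost under 2 settings each at chr16:2495400-2499820, chr6:7658870-7659540 and chr5:54621830-54622770. Under 1 setting each, the E4 calls of chr3:5419470-5419840 and chr5:25112990-25113230 and the E5 call of chr5:54618520-54620970 were lost. No direction was reversed where the main or the alternative value was called. Reversals between 2 values that were not called were left uncounted. The cause of these shifts was not tested, apart from the fewer libraries or regions that a setting itself leaves. With 2 libraries per group and about 45.5 reads per member in the shallowest library, small differences were not detectable.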
